A study of Homo sapiens with 6 samples.

Results

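The chromosome 6 segment that holds HBS1L, MYB and AHI1 was examined for open chromatin in 6 lines of T-ALL (T-cell acute lymphoblastic leukaemia, which arises from T-cell precursors). All 6 are established lines. The members were all ATAC-seq intervals that overlapped hg19 positions 135250000 to 135850000, whatever their height. The segment was chosen with earlier results of these data known. The 70 intervals that qualified merged into 22 regions, out of 40110 regions on chromosomes 1 to 22 and X. The lines were MOLT-4, CCRF-CEM, TALL-1, KOPT-K1, HBP-ALL and DND-41. All were grown in RPMI-1640 with serum and antibiotics, and the labels name no drug or genetic change. In ATAC-seq the transposase Tn5 cuts and tags accessible DNA, so that positions where many tags stack up mark open chromatin. There was 1 library per line, so no replicate error exists, differences between lines carry no p-value, and a difference between lines cannot be told apart from one between preparations.

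MYB encodes a DNA-binding transcription factor that blood progenitors and early T cells depend on, and it is a known oncogene of T-ALL. HBS1L, which lies before it on the chromosome, encodes a translation factor that helps to rescue stalled ribosomes, and AHI1, which lies after it, encodes a protein of the primary cilium. HBS1L and AHI1 are read towards lower positions and MYB towards higher ones. The stretch between HBS1L and MYB is known for distal enhancers of MYB, and common variants in it are linked to fetal haemoglobin levels and other red cell traits. In RefSeq's gene order on GRCh38.p14, ALDH8A1 precedes HBS1L, and AHI1-DT, a long non-coding RNA read away from AHI1, follows AHI1.

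The segment was divided into 4 windows. The HBS1L window ran from 135250000 to 135380000, the intergenic window from there to 135500000, the MYB window to 135600000 and the AHI1 window to 135850000. The border between MYB and AHI1 was set 100 kb above the end of the intergenic window, because the choice of members gave none. Windows carry the name of a gene but are not its limits, so a region of the MYB window need not lie within MYB. Regions are named by window and numbered from low to high position, so that MYB-1 is the first region of the MYB window. No annotation of hg19 was used here, so regions are not assigned to exons, introns or untranslated parts. From general knowledge of hg19, HBS1L-3, MYB-1 and AHI1-6 lie where the starts of HBS1L, MYB and AHI1 are, which was not checked against an annotation.

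The promoters of all 3 genes were found in RefSeq. The 250 bases before each gene start are shown because the regions that lie where the genes are known to start were open in every line. They are written 5′ to 3′ on the strand of the gene (RefSeq, GRCh38.p14), with each CpG dinucleotide in capitals.
HBS1L: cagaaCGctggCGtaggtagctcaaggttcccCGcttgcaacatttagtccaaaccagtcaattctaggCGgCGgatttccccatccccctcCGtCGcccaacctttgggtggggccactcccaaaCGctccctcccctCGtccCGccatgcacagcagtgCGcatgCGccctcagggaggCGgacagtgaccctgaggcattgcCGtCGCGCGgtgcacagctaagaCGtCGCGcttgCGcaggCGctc
MYB: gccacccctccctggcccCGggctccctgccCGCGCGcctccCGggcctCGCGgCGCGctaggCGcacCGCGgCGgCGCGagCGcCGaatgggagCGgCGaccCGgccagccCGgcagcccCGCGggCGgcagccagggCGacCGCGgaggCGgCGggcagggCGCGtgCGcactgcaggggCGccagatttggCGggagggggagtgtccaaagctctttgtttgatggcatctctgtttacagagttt
AHI1: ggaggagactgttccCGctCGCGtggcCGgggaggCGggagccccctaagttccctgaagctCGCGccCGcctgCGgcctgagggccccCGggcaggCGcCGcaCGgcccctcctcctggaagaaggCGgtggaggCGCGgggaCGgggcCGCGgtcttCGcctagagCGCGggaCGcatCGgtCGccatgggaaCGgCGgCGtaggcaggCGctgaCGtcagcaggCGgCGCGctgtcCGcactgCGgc
The MYB promoter had a GC content of 75.6% and held 34 CpG dinucleotides. That of AHI1 was alike, with 76% GC and 35 CpG dinucleotides, and that of HBS1L had 64% GC and 22. Over 35116 promoters of this length the medians were 58% GC and 11 CpG dinucleotides.

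Of 8 motifs searched on both strands, CCGCCC, the site of SP and KLF factors, had 1 match in the MYB promoter, and 42.6% of all promoters held one. AACNGT, the MYB site, had 1 match in the AHI1 promoter and was present in 18.6% of all promoters. None of the 3 promoters held GATAA (the GATA site, in 20.4% of all promoters), TGTGGT (RUNX, 11%), CCGGAA (ETS, 14.5%), CANNTG (E-box, 61.8%), CCACNAG (part of the CTCF site, 11.6%) or CCAAT (NF-Y, 32.0%). A match is only a run of letters, and no match says nothing of the factor elsewhere.

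Open chromatin was dense across the segment. Among 4647 stretches of 600 kb that held any region, the median had 8 regions and 1 region with a peak in all lines; the segment had 22 and 6. Of the 22 regions, 6 (27.3%) had a peak in all lines, against a background of 22.6% over all regions, and 9 (40.9%) had a peak in 1 line only, against 43.2%. Both shares lay near the background. Another 3 regions (13.6%) were missed by 1 line alone, where the background was 6.53%. Of the remaining 4 regions, 2 had a peak in 3 lines and 2 in 2 lines.

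CCRF-CEM had peaks in 16 of the 22 regions, 72.7% against 55.4% of all regions in this line. HBP-ALL had 12 (background 54.5%), MOLT-4 12 (47.3%), KOPT-K1 11 (44.8%), DND-41 10 (44.3%) and TALL-1 9 (40.7%). TALL-1 therefore held 40.9% of the regions of the segment, close to its background. The covered length ran from 6550 bp in TALL-1 to 9008 bp in CCRF-CEM. A relative tag depth, from the lowest background in each list, was lowest in CCRF-CEM, set to 1, and highest in TALL-1, at 2.09. CCRF-CEM also had the most intervals over the genome, 22367, and TALL-1 the fewest, 16507; the part of depth and list length in the counts at the segment was not tested.

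**Figure D1:**
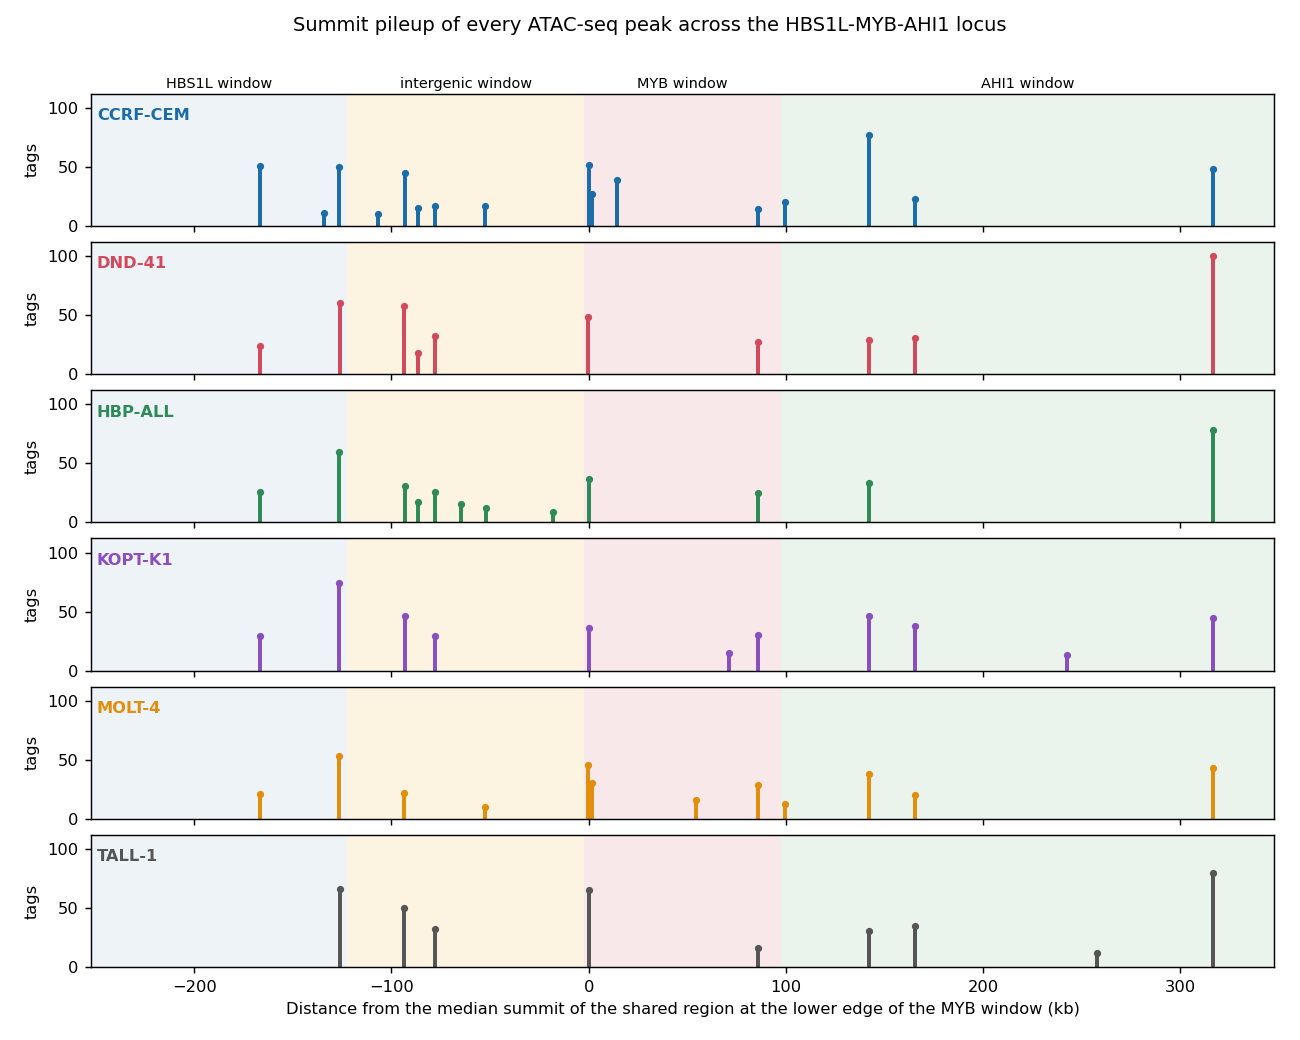
Summit pileup (tags, vertical axis) of every peak of the segment in the 6 lines, against the distance in kb from the median summit of MYB-1; shading marks the 4 windows. CCRF-CEM had peaks in 16 regions and TALL-1 in 9, and 6 positions carried a peak in each line.

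The intergenic and MYB windows were the densest, with 5.83 and 6 regions per 100 kb, against 2.31 in the HBS1L window and 2.4 in the AHI1 window. The HBS1L window held 1 to 3 regions per line and the AHI1 window 2 to 4, while the intergenic window held 2 to 6 and the MYB window 2 to 4. The covered length in the intergenic window was 2904 bp in HBP-ALL and 1247 bp in MOLT-4, the extremes of the lines. In the MYB window it was 2431 bp in CCRF-CEM and 1575 bp in TALL-1.

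Peak heights are given as pileups, the whole numbers of tags stacked at the strongest summit, which were recovered from the fold and −log10 p in the authors' lists. Exact Poisson 95% intervals are of raw tags and cover counting error only. Whether those of different lines overlap therefore also turns on depth. Neither pileups nor their ratios were corrected for DNA copy number, and its part in differences between lines was not tested. Because libraries differed in depth, each pileup is also given as a ratio to the median pileup of the same line over 9039 regions shared by all lines; that median was 31 tags in CCRF-CEM, 36 in KOPT-K1 and MOLT-4, 39 in HBP-ALL, 40 in DND-41 and 44 in TALL-1. On the median of this ratio on the log2 scale, set against the mean of the lines, the 6 shared regions of the segment stood between −0.16 in HBP-ALL and 0.22 in KOPT-K1. Scaled by relative tag depth instead, HBP-ALL stood at −0.45 and CCRF-CEM at 0.59 (from 0.16), so the place of a line over the whole segment turned on the scaling. The regions also went both ways within a line: by the first scaling CCRF-CEM stood at −0.48 at MYB-6 and at 1.16 at AHI1-2.

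MYB-1, at 135501669 to 135502798, had pileups of 65 in TALL-1, 52 in CCRF-CEM, 48 in DND-41, 46 in MOLT-4, 37 in HBP-ALL and 36 in KOPT-K1. TALL-1 was highest and KOPT-K1 lowest in raw tags, with Poisson intervals of 50.2 to 82.8 and 25.2 to 49.8 that did not overlap. These intervals were not scaled for depth, so they do not show a separation of the ratios below. As ratios to the line's own median the values were 1.68 in CCRF-CEM, 1.48 in TALL-1, 1.28 in MOLT-4, 1.2 in DND-41, 1 in KOPT-K1 and 0.949 in HBP-ALL. TALL-1 then fell behind CCRF-CEM, while KOPT-K1 and HBP-ALL stayed lowest.

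The peak at MYB-1 was wide and stood on a high local background, the number of tags the caller expected at the summit. Its width was 972 to 1118 bp in the 6 lines, with a median of 1040.5 bp against 672 bp over all shared regions. The background was 9.72 tags in TALL-1, 9.05 in MOLT-4, 8.35 in CCRF-CEM, 8.24 in KOPT-K1, 7.65 in DND-41 and 6.68 in HBP-ALL. That is 5.45 times the lowest background of the list in HBP-ALL and 12.0 times in CCRF-CEM, the ends of the range over the lines. The median background of MYB-1 exceeded that of 94.8% of shared regions, and its median fold of 5.30 exceeded that of only 4.37% of them, whereas its median pileup of 47 exceeded that of 66.6%. The fold in the authors' lists thus ranked MYB-1 far lower than its pileup did.

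**Figure D2:**
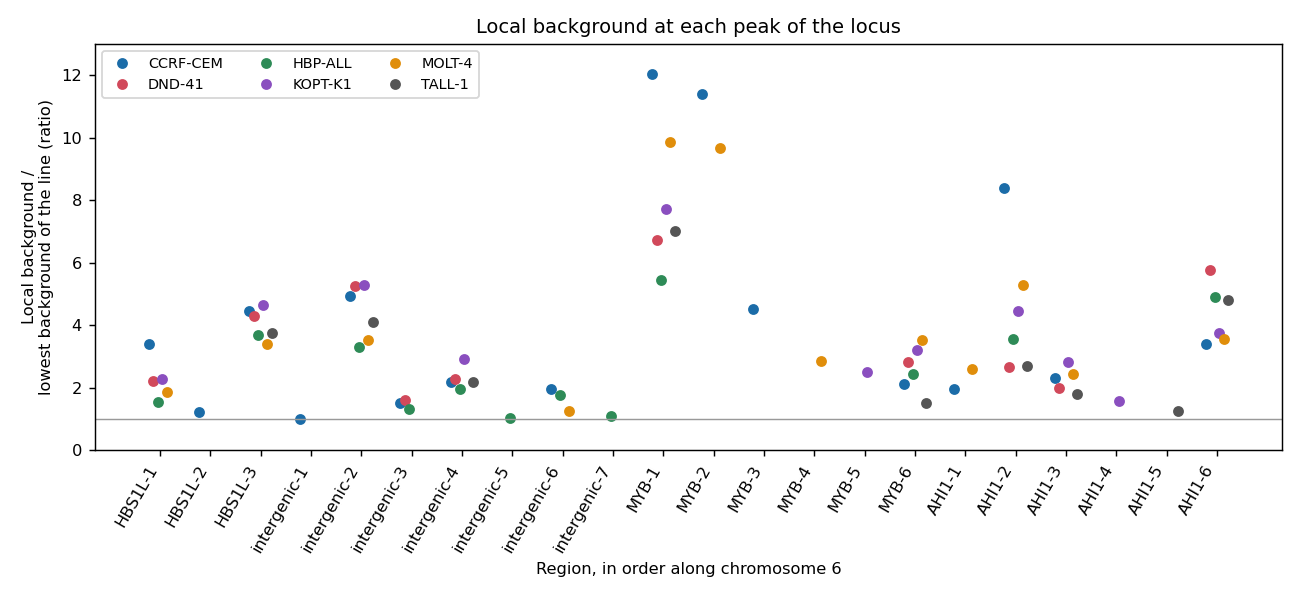
Local background at each peak, as a ratio to the lowest background of the same line (vertical axis), for the 22 regions in their order on chromosome 6; each point is 1 line. MYB-1 ran from 5.45 to 12.0 and MYB-2 from 9.69 to 11.4, and AHI1-2 in CCRF-CEM reached 8.40.

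The lower edge of MYB-1 was placed within a short stretch in all lines. Its start varied by 41 bp, from 135501669 to 135501710, against a median of 185 bp over all shared regions, and 3.25% of shared regions had a smaller range. The end varied by 134 bp, against a median of 183 bp. CCRF-CEM, HBP-ALL, MOLT-4 and TALL-1 each had 2 summits there, the first between 135501771 and 135501802 with 20 to 39 tags and the second 515 to 603 bp further on. DND-41 and KOPT-K1 had 3 summits each and none in that first place.

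The strongest summit of MYB-1 lay at 135502317 to 135502425 in all lines but DND-41. In DND-41 it lay at 135502064, which is −293.5 bp from the median of the 6 lines. The 3 summits of DND-41 held 48, 42 and 32 tags, so that the first and second were close in height. The strongest summit of KOPT-K1 led by 1 tag, with 36 tags at 135502425 against 35 at both 135501946 and 135502151. Over the 6 lines the strongest summit ranged over 361 bp, and over 108 bp without DND-41, which was singled out after its value was seen. With the summit nearest to the median taken in each line, the range was 202 bp, and that of DND-41 then lay at 135502223.

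**Figure D3:**
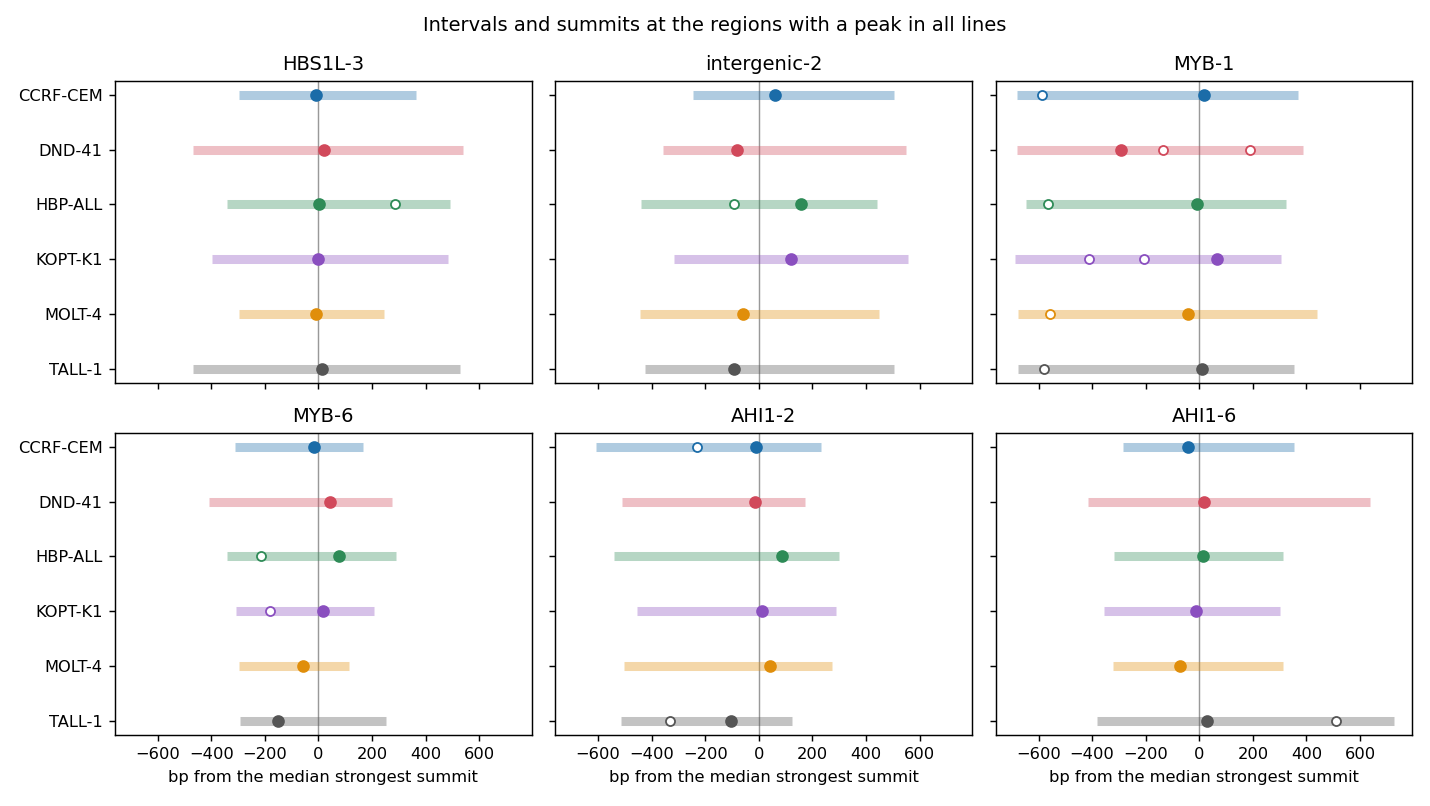
Intervals (bars), strongest summits (filled circles) and further summits (open circles) at the 6 regions with a peak in all lines, in bp from the median strongest summit (horizontal axis). The lower edges of MYB-1 align within 41 bp, and the strongest summits of HBS1L-3 lie within 32 bp.

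MYB-2, at 135504076 to 135504425 and 1.93 kb beyond the median summit of MYB-1, had a peak in CCRF-CEM (27 tags) and MOLT-4 (30 tags) only. The local background there was close to that at MYB-1, at 7.92 tags in CCRF-CEM and 8.87 in MOLT-4. The lists hold peaks with a −log10 p above 5. With the background that the other lines had at MYB-1, a call would have needed 26 tags in TALL-1, 23 in KOPT-K1, 22 in DND-41 and 20 in HBP-ALL. A missing peak here allows up to about that many tags, and is no measure of closed chromatin. AHI1-1, at 135601951 to 135602408, was the other region held by 2 lines, and again these were CCRF-CEM (20 tags) and MOLT-4 (13 tags). Over all regions, 1.21% had a peak in this pair of lines alone, which makes 8.92% of the regions held by 2 lines.

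MYB-3, at 135516378 to 135517062, had the highest −log10 p of the regions held by a single line. CCRF-CEM had 39 tags there over a background of 3.13, a −log10 p of 29.4, and 1.26 times its median at shared regions. The summit lay 14.5 kb beyond that of MYB-1. MYB-4 was held by MOLT-4 alone (16 tags, 54.4 kb beyond MYB-1) and MYB-5 by KOPT-K1 alone (15 tags, 71.1 kb beyond). Both stood little above what a call needed at the median background of their lists, which was 12 tags in each of these lines.

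MYB-6, at 135587952 to 135588651 and 86.0 kb beyond MYB-1, was open in every line and had the lowest median pileup of the 6 shared regions. Its pileup was 30 in KOPT-K1, 29 in MOLT-4, 27 in DND-41, 25 in HBP-ALL, 16 in TALL-1 and 14 in CCRF-CEM. CCRF-CEM and TALL-1 were lowest, although both were the highest lines at MYB-1. As a ratio to the median of the line, MYB-6 stood at 0.364 in TALL-1 and 0.452 in CCRF-CEM, and between 0.641 and 0.833 in the other 4 lines.

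The intergenic window had 7 regions, and 1 of them was open in every line. This was intergenic-2, at 135408565 to 135409567, with its median summit 93.3 kb before that of MYB-1. Its pileup was 58 in DND-41, 50 in TALL-1, 46 in KOPT-K1, 45 in CCRF-CEM, with only 31 in HBP-ALL and 22 in MOLT-4. In raw tags, the Poisson interval of MOLT-4, 13.8 to 33.3, lay below those of DND-41 (44.0 to 75.0), KOPT-K1 (33.7 to 61.4) and TALL-1 (37.1 to 65.9). These intervals were not scaled for depth. Relative to the median of the line, MOLT-4 stood at 0.611 and HBP-ALL at 0.795, and the other lines at 1.14 to 1.45.

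A ratio of 2 pileups in the same library does not depend on its depth. MYB-1 over intergenic-2 gave 2.09 in MOLT-4, with an exact 95% interval of 1.23 to 3.65. It gave 1.30 in TALL-1 (0.885 to 1.92), 1.19 in HBP-ALL (0.721 to 1.99) and 1.16 in CCRF-CEM (0.760 to 1.76). In DND-41 and KOPT-K1 the ratio was below 1, at 0.828 (0.553 to 1.23) and 0.783 (0.492 to 1.24). In MOLT-4 alone the counting interval excluded 1, but it overlapped those of all other lines, at the edge only for DND-41 and KOPT-K1. Pileups include the local background, which in MOLT-4 was 9.05 tags at MYB-1 and 3.23 at intergenic-2. By fold the order in MOLT-4 was the reverse, 4.68 at MYB-1 against 5.44 at intergenic-2, and the fold was lower at MYB-1 in every other line too.

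intergenic-4, at 135423988 to 135424773 and 78.1 kb before MYB-1, was open in every line but MOLT-4. Pileups were 32 in both DND-41 and TALL-1, 29 in KOPT-K1, 26 in HBP-ALL and 17 in CCRF-CEM, and the 5 summits lay within 44 bp. A call in MOLT-4 would have needed 7 tags at the lowest background of that list, or 13 at the highest background the other lines had there. The background of the other lines was not scaled for depth. The nearest MOLT-4 peak was 14.5 kb away, at intergenic-2. MOLT-4 was thus the line with the lowest pileup at intergenic-2 and with no call at intergenic-4. In the MYB window MOLT-4 and CCRF-CEM had 4 regions each and KOPT-K1 had 3. The MOLT-4 peaks at MYB-2 and MYB-4 were weak, with a −log10 p of 8.24 and 8.52, so its count there rests partly on calls below 10.

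Weaker intergenic regions differed between lines. intergenic-3, at 135415544 to 135416061 and 86.6 kb before MYB-1, had a peak in CCRF-CEM (15 tags), DND-41 (18 tags) and HBP-ALL (17 tags), with summits within 52 bp. intergenic-6, at 135449604 to 135450402, joined peaks of CCRF-CEM (17 tags), MOLT-4 (10 tags) and HBP-ALL (12 tags). The HBP-ALL summit there lay 312 bp from the median and its interval met that of CCRF-CEM at the edge only and did not overlap that of MOLT-4. intergenic-1 was held by CCRF-CEM alone (10 tags), and intergenic-5 (16 tags) and intergenic-7 (9 tags) by HBP-ALL alone. HBP-ALL had 6 intergenic regions and CCRF-CEM 5, against 3 in DND-41 and 2 in each of KOPT-K1, MOLT-4 and TALL-1. HBP-ALL and CCRF-CEM had 4 each with a −log10 p of at least 10, and likewise with equal numbers of the strongest peaks, so neither led.

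HBS1L-3, at 135375555 to 135376563, had the smallest ratio of highest to lowest pileup among the 6 shared regions. The pileup at HBS1L-3 was 74 in KOPT-K1, 66 in TALL-1, 60 in both HBP-ALL and DND-41, 53 in MOLT-4 and 50 in CCRF-CEM. The highest was 1.48 times the lowest, against a median of 2.19 times over all shared regions. As a ratio to the median of the line, KOPT-K1 stood at 2.06 and the others at 1.47 to 1.61. The strongest summits lay within 32 bp, where the median range over all shared regions was 123 bp. In CCRF-CEM and MOLT-4 they lay on the same base, 135376014. HBP-ALL had a further summit of 27 tags, 282 bp beyond its strongest.

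HBS1L-1, at 135335229 to 135336047, had a peak in every line but TALL-1. Pileups were 51 in CCRF-CEM, 29 in KOPT-K1, 26 in HBP-ALL, 24 in DND-41 and 21 in MOLT-4. CCRF-CEM was highest, at 1.65 times its median against 0.583 to 0.806 in the other lines with a peak. In TALL-1 the nearest peak was 39.5 kb away. A call would have needed 9 tags at the lowest background of that list or 12 at the highest background of the others. The backgrounds of the others were not scaled to the depth of TALL-1, so a call may have needed more tags. TALL-1 had the highest relative tag depth and also the fewest intervals over the genome, 16507, and the part of either in the missing call was not tested. HBS1L-2 was held by CCRF-CEM alone (11 tags).

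AHI1-6, at 135818505 to 135819645, was the strongest region of the segment by median −log10 p, at 51.2. The pileup at AHI1-6 was 100 in DND-41, 80 in TALL-1, 78 in HBP-ALL, 48 in CCRF-CEM, 45 in KOPT-K1 and 43 in MOLT-4. DND-41 had the tallest peak of the segment here. In raw tags, not scaled for depth, its Poisson interval of 81.4 to 121.6 lay above those of CCRF-CEM, KOPT-K1 and MOLT-4. In ratios to the line's median the values were 2.5 in DND-41, 2 in HBP-ALL, 1.82 in TALL-1, 1.55 in CCRF-CEM, 1.25 in KOPT-K1 and 1.19 in MOLT-4. The peak was 1053 bp wide in DND-41 and 1108 bp in TALL-1, and 630 to 656 bp in the other 4 lines. In TALL-1 a further summit of 26 tags lay 482 bp beyond the strongest.

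AHI1-2, at 135643897 to 135644806, had the largest ratio of highest to lowest pileup among the 6 shared regions, 2.66, just above the 2.64 of intergenic-2. Its pileup was 77 in CCRF-CEM, 46 in KOPT-K1, 38 in MOLT-4, 33 in HBP-ALL, 31 in TALL-1 and 29 in DND-41. CCRF-CEM, the shallowest library, had the tallest peak, at 2.48 times its median against 0.705 to 1.28 elsewhere. Its local background there was 3.59 times the median of the line, against 1.08 to 1.99 elsewhere; the part of this in the height was not tested. Its Poisson interval of 60.8 to 96.2 met only the upper end of that of KOPT-K1, 33.7 to 61.4. CCRF-CEM and TALL-1 had 2 summits there, 221 and 225 bp apart.

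AHI1-3, at 135667664 to 135668432, had a peak in every line but HBP-ALL. Pileups were 38 in KOPT-K1, 35 in TALL-1, 31 in DND-41, 23 in CCRF-CEM and 20 in MOLT-4, with the strongest summits within 35 bp. A call in HBP-ALL would have needed 8 tags at its lowest background or 13 at the highest background of the others, not scaled for depth. The nearest HBP-ALL peak was 22.9 kb away, at AHI1-2. AHI1-4 (KOPT-K1 alone, 13 tags) and AHI1-5 (TALL-1 alone, 12 tags) were weak, and lay 15.1 kb from each other. Of the 9 regions held by 1 line only, CCRF-CEM had 3, and HBP-ALL and KOPT-K1 had 2 each. MOLT-4 and TALL-1 had 1 each and DND-41 had 0. The share of such regions over all regions was not computed for each line, so these small counts are not read as a trait of a line.

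Among all 9053 shared regions, of which 9039 had a recovered pileup in every line, the 6 of the segment took different places. The median fold of HBS1L-3 was 11.7, above that of 95.4% of them, and that of AHI1-6 was 10.9, above 90.2%. Those of intergenic-2 (7.35), AHI1-2 (7.11), MYB-6 (6.58) and MYB-1 (5.30) were all below the median over shared regions, 8.38. By median pileup the order changed: AHI1-6 (63 tags) and HBS1L-3 (60) still led, MYB-1 (47) and intergenic-2 (45.5) followed, and AHI1-2 (35.5) and MYB-6 (26) lay below the median of 38. The strongest summits of these 6 regions ranged over a median of 211 bp across lines, against 123 bp over all shared regions.

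**Figure D4:**
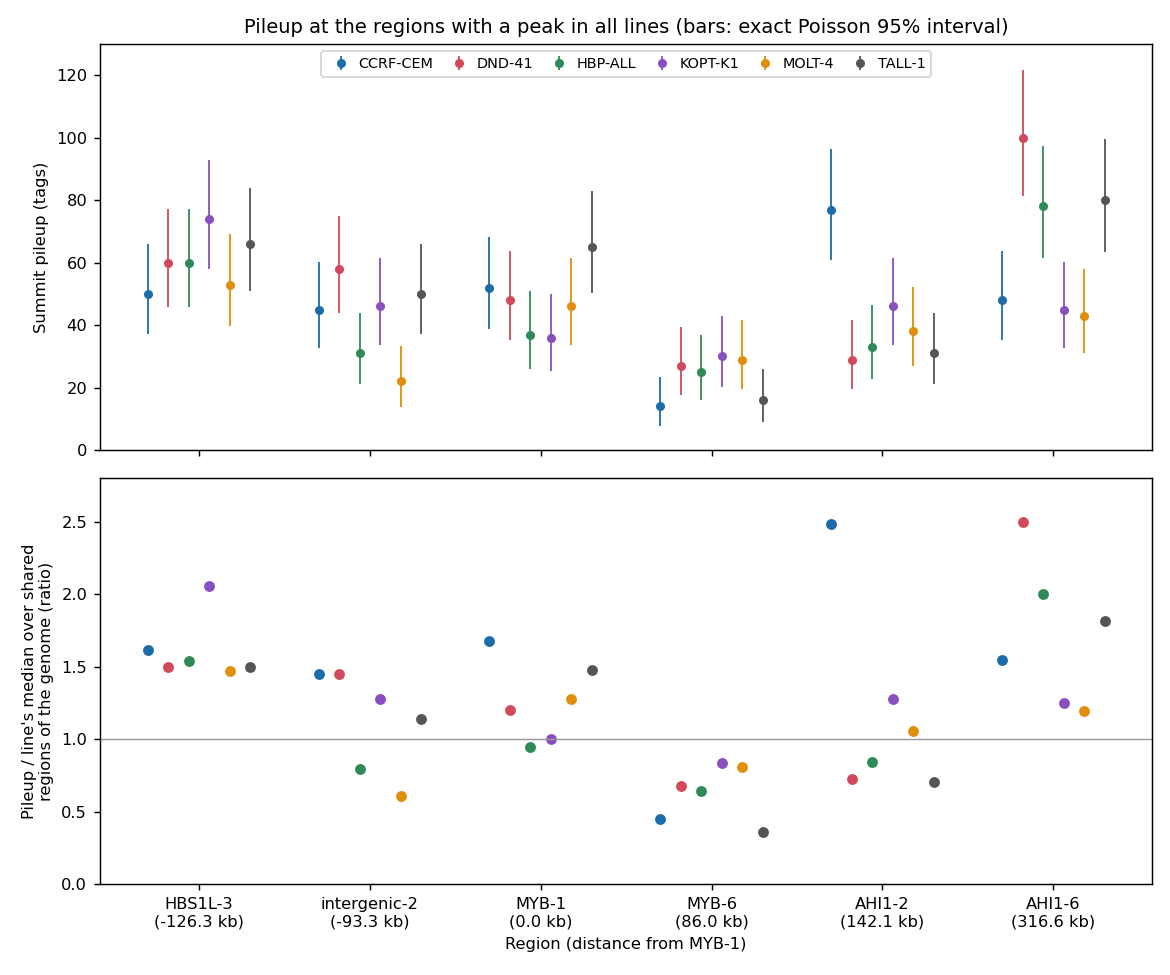
Summit pileup in tags with exact Poisson 95% intervals (upper panel) and its ratio to the median of the same line over shared regions of the genome (lower panel), at the 6 regions with a peak in all lines. HBS1L-3 varies least, and CCRF-CEM stands at 2.48 at AHI1-2 against 0.705 to 1.28 in the other lines.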

How the data were processed

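ATAC-seq was done on 6 T-ALL lines with 1 library each, grouped by the cell line in the labels. The authors deposited 1 peak list per library, without a header. Per the submitters' processing notes, Bowtie2, Picard, SAMtools, MACS2 2.1.1.2016030 and build hg19 were used. Tool settings, including a Tn5 offset of reads, were not given in the sources used here. For each summit the deposited lists hold the fold over the local background (a ratio), the −log10 p-value, which starts just above 5, and the summit position.

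Entries with the same interval were treated as 1 interval, and its strongest summit was used. Between lines, intervals with 1 bp or more in common were merged. A region was placed in a window by its midpoint. Pileup t and background c were solved from fold = (t + 1) / (c + 1) together with the Poisson probability, given c, of exceeding t. Whole t that met the −log10 p within 0.001 were found for 99.88% to 99.94% of summits; pileups above 249 were not tried. The lowest background is the lowest value shared by at least 10 summits of a list. Relative tag depth divides it by the smallest interval width. Read totals are not known here. Recovery and merging were tested on simulated data, where 100% of 3959 summits and 100% of 3000 regions came out right. The simulated summits were made with the same formula, so this checks the solving and not whether the caller used that formula. The simulated regions lay well apart, so intervals that meet at an edge were not tested.

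With 1 library per line no p-value was computed for a difference between lines. Values that stood apart among the 6 lines were marked by Dixon's gap ratio alone, which uses no replicate error. Members, windows and lists were chosen with earlier results of these data known. Regions named were those open in all lines, those missed by 1 line, intergenic and MYB regions in at least 2 lines, the strongest of each window and the strongest line-only region of each line. The 5 others, HBS1L-2, intergenic-1, intergenic-7, MYB-5 and AHI1-1, and the edge and ratio comparisons were added after values were seen. Alternatives were another p threshold, equal numbers of peaks, a stricter overlap, moved borders, other scalings and leaving out lines. T-cell marker genes were not analysed here, since no hg19 annotation was used. The tools were scipy 1.17.1, pandas 2.3.3, numpy 2.4.6 and matplotlib 3.10.9 under Python 3.11.15.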

Additional observations from a re-analysis of the deposited data

Results flagged for a closer look

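Of 26 values compared over the 6 lines, 5 stood apart from the rest by the gap to the nearest line, divided by the range, against Dixon's 95% critical value; chance flags about 1 in 20. CCRF-CEM had a high pileup at AHI1-2, at 2.48 times the line's median against 0.705 to 1.28 in the others. The local background of CCRF-CEM at AHI1-2 was also high, at 3.59 times the line's median against 1.08 to 1.99, and its part in the pileup was not tested. Both values were solved from the same fold and −log10 p of 1 peak, so these flags are not separate findings. KOPT-K1 was high at HBS1L-3, at 2.06 times its median against 1.47 to 1.61. CCRF-CEM had a narrow peak at intergenic-2, at 751 bp against 875 to 931 bp. The strongest DND-41 summit at MYB-1 lay at −293.5 bp from the median, where the others lay between −40.5 and 67.5 bp.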

How the results depend on the processing

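No paired analysis was possible because each line has 1 library. Of 116 recomputed values 104 kept to within 1.5 times the count or range, or to within the counting error of the summed tags of a line, and 12 moved. That counting error was 0.16 to 0.19 on the log2 scale, larger than the size of the relative pileup in every line but KOPT-K1. It is an error of summed tags, whereas the relative pileup is a median over the shared regions. A change of sign could therefore count as kept, as in MOLT-4, from −0.05 to 0.07 when centred on chromosome 6. The count of regions open in all lines stayed at 6 with a −log10 p of at least 10, with equal numbers of the strongest peaks and with an overlap of at least 50% of the shorter interval, and was 6 to 7 with a line left out. Regions held by 1 line only fell from 9 to 4 with a −log10 p of at least 10, and were 7 to 10 with a line left out. MOLT-4 kept 1 intergenic region with that threshold. Moving the borders of the intergenic window outwards by 5 kb, which takes in regions at both gene starts, gave 8 regions each in CCRF-CEM and HBP-ALL (from 5 and 6), 5 each in MOLT-4 and DND-41, and 4 each in TALL-1 and KOPT-K1. Scaled by relative tag depth, the relative pileup over the shared regions of the segment became 0.59 in CCRF-CEM (from 0.16), −0.45 in HBP-ALL (from −0.16) and −0.20 in TALL-1 (from 0.01); the shallow library then stands high and the deep ones low. The MYB-1 summit range was 108 bp without DND-41, 310 to 361 bp without another line, and 202 bp with the summit nearest to the median in each line; these were added after the data were seen. Pileups of 9 to 100 tags limit what can be told apart between lines.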
